A study of Mus musculus with 145 samples.

Results

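The expression of 9 mast cell genes was followed in dorsal skin of mice irradiated once under a tanning canopy, whose lamps emit mainly UVA with some UVB. The genes were listed by name: the granule proteases Cpa3, Cma1, Mcpt4, Tpsb2 and Tpsab1, the IgE receptor chains Ms4a2 and Fcer1a, the histamine-forming enzyme Hdc and the receptor Mrgprb2. All 9 were among the 55416 genes of the count table, and all 9 passed the filter on low counts that left 18677 genes. Animals were sham-handled (0 mJ/cm2) or received 5, 10, 20 or 40 mJ/cm2, and skin was taken at 0, 6, 24, 48, 72 or 96 h. The 30 groups hold 145 libraries, each from its own animal: 25 groups of 5, and groups of 4 at 20 mJ/cm2 at 48 h and at every irradiated dose at 96 h. For strain, age and sex of the mice, the sources used here give nothing.

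Mast cells are resident immune cells of the dermis that lie close to vessels and nerves and store histamine and proteases in granules. Cross-linking of IgE on its high-affinity receptor, or basic peptides acting on Mrgprb2, makes them release these stores. Their role in how ultraviolet light alters skin immunity has been studied in mice. In whole skin, fewer cells of a type and less RNA per cell cannot be told apart.

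Library totals ran from 180000 to 64600000 counts with a median of 11100000, where the labels' protocols speak of about 40000000 reads a sample. The 2 libraries under 1000000 counts were 10 mJ/cm2 replicate 5 at 6 h and 20 mJ/cm2 replicate 5 at 0 h, and the next lowest held 2690000. The skin held keratinocyte markers in every group (group means of 5560 to 15700 summed CPM, the count scaled to the TMM-adjusted library total) and also skeletal muscle markers (group means of 18200 to 50900 summed CPM, and 5170 to 81300 in single libraries). Library titles end in R1_001 (71 libraries) or R1 (74 libraries). The sources used here do not explain these endings, and the ending was a covariate in the fits unless stated otherwise.

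Of the 5 proteases, 4 were the most abundant members. Per kilobase of the annotated exons of a gene, joined over its transcripts, the median over the 30 sham libraries was 16.5 CPM for Mcpt4. Mcpt4 is the chymase that in mouse skin mast cells corresponds most closely to the human enzyme in function. Cma1, another chymase gene, followed at 11.1 CPM per kilobase, and Cpa3, the carboxypeptidase of the mast cell granule, at 9.04. The tryptase Tpsb2 stood at 3.91 CPM per kilobase and Mrgprb2 at 2.64. Hdc at 0.489 and the IgE receptor beta chain Ms4a2 at 0.428 were close together on this scale. Their joined exons span 6389 and 2813 bases, more than their longest transcripts, which lowers both values. The IgE receptor alpha chain Fcer1a at 0.132 and the other tryptase, Tpsab1, at 0.0923 were lowest. The ranges of neighbours in this order overlapped across sham libraries, for example 2.01 to 32 for Mcpt4 and 1.63 to 20.6 for Cma1, on the same per-kilobase scale. The median raw count was 199 for Mcpt4 but only 3 for Tpsab1 and 2 for Fcer1a, and 26 and 24 of the 145 libraries held no count of these last 2 genes, so their single-library values are coarse.

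Promoters are shown for 4 members whose behaviour the results turn on: Cma1 and Mcpt4, which varied together most closely between animals, and Hdc and Mrgprb2, which passed the test after 40 mJ/cm2. Each runs from 250 bases before to 50 bases after the start of the gene, 5′ to 3′ on the minus strand of GRCm38.p6 (RefSeq). Capitals mark matches, on either strand, to GATA with an A or a T before it and an A or a G after it. The windows are chr14:55944626-55944925 for Cma1, chr14:56062261-56062560 for Mcpt4, chr2:126618629-126618928 for Hdc and chr7:48558037-48558336 for Mrgprb2.
Cma1: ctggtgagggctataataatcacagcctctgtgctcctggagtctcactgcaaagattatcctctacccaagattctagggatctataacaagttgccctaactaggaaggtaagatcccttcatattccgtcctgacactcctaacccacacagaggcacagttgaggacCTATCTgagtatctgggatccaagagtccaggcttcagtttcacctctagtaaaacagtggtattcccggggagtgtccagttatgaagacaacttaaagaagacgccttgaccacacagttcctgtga
Mcpt4: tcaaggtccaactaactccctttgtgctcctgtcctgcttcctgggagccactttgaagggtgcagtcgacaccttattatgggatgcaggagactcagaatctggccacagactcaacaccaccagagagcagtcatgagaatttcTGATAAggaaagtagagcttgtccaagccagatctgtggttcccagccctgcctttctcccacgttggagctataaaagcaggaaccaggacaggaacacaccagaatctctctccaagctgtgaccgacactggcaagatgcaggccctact
Hdc: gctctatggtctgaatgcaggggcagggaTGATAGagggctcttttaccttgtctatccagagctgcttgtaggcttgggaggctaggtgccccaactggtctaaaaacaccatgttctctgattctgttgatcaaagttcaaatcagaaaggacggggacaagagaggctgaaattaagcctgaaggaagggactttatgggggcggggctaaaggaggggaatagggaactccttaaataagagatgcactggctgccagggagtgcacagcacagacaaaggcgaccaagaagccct
Mrgprb2: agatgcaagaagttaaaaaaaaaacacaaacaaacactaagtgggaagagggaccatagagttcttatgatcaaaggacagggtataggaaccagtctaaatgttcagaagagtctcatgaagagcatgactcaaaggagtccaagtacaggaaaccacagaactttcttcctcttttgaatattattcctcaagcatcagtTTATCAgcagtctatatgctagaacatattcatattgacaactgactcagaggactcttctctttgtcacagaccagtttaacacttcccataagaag

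All 7 members found in the promoter table (these 4 with Cpa3, Ms4a2 and Fcer1a; not Tpsb2 and Tpsab1) held at least 1 GATA match, which 29.8% of the 32851 promoters of that table hold. GATA factors, Gata2 among them, are known regulators of mast cell genes. The E-box letters CANNTG, carried by 72.3% of all promoters, were found in 5 of the 7. The AP-1 letters TGANTCA stood in Mrgprb2 alone among the 7, with 2 matches, against 7.81% of all promoters with any. The TATA letters TATAAA had 2 matches in Cpa3 and 1 each in Mcpt4 and Fcer1a, against 13.6% of all promoters with any. A match describes the letters of the window and not a bound site.

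Every irradiated group was compared with sham skin taken at the same hour, which asks whether a single exposure changed mast cell transcripts in skin and when. Most members did not pass the test at any dose or time. Hdc was higher after 40 mJ/cm2 at 48 and 72 h, Mrgprb2 was lower after 40 mJ/cm2 at 6 h, and no protease or IgE receptor gene passed at any single time unless the muscle marker level was a covariate. At 5, 10 and 20 mJ/cm2, 0 of 9 members passed in each of the 18 comparisons (edgeR quasi-likelihood test, adjusted p under 0.05), where 0.412% of all genes passed at 20 mJ/cm2 at 6 h, 0.0803% at 24 h, 0.525% at 48 h and 0% in the other 15. In those 18 comparisons between 0 and 2 members had an unadjusted p under 0.05, and DESeq2 also called 0 where it gave an adjusted p.

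At 40 mJ/cm2, 0 of 9 members were called at 0 h, where 0% of all genes were, and 0 members had an unadjusted p under 0.05. The counts were 1 of 9 at 6 h (5.02% of all genes), 0 at 24 h (2.92%), 1 at 48 h (7.62%), 1 at 72 h (1.16%) and 0 at 96 h (0.118%). No member had an unadjusted p under 0.05 at 24 h and 2 did at 96 h, and DESeq2 called 0 at 0 and 24 h and 1 at 96 h. The median log2 fold change of the 9 members was -0.08 at 6 h, 0.02 at 24 h, 0.14 at 48 h and 0.18 at 72 h, beside 0.02, 0.04, 0.00 and 0.01 over all genes. At 96 h it was 1.05 beside -0.03, with 0 of 9 called. Keratinocyte markers at 96 h summed to 6980 to 23500 CPM after 40 mJ/cm2 and 4940 to 6850 CPM in sham, fibroblast markers to 38300 to 52600 and 55100 to 67700 CPM, and adipocyte markers to 887 to 1810 and 221 to 969 CPM. The part of these cells in the 96 h values was not tested.

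**Figure D1:**
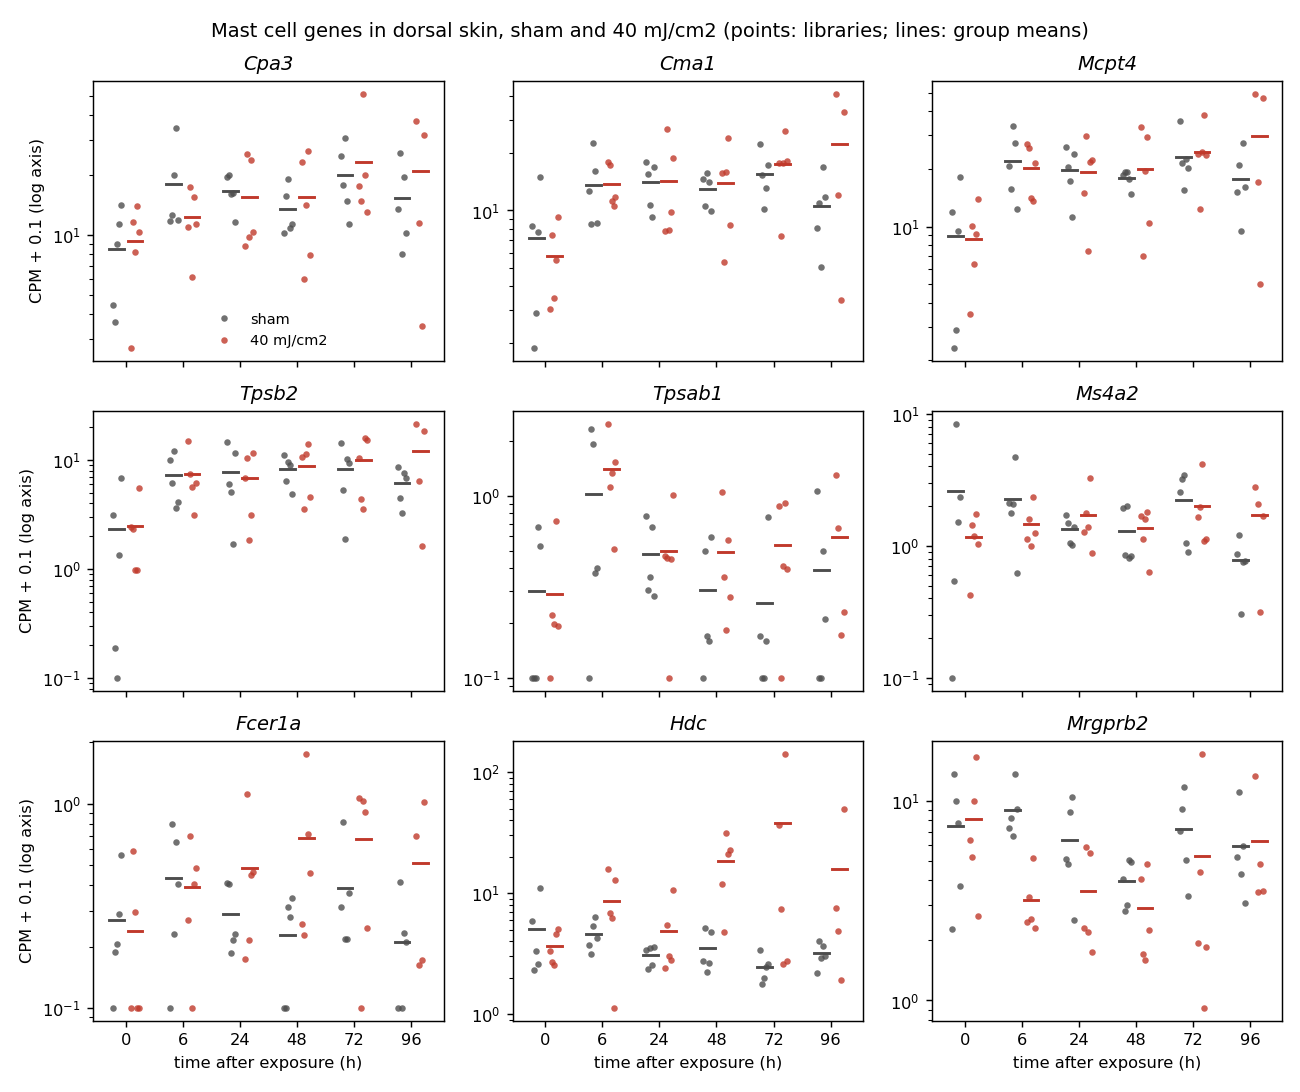
Levels of the 9 mast cell genes in sham (grey) and 40 mJ/cm2 (red) libraries by time after exposure in hours, as CPM plus 0.1 on a log axis; points are libraries and lines are group means. Hdc is high in most 40 mJ/cm2 libraries at 48 h (4.63 to 31.6 CPM), and the Mrgprb2 groups do not overlap at 6 h.

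**Figure D2:**
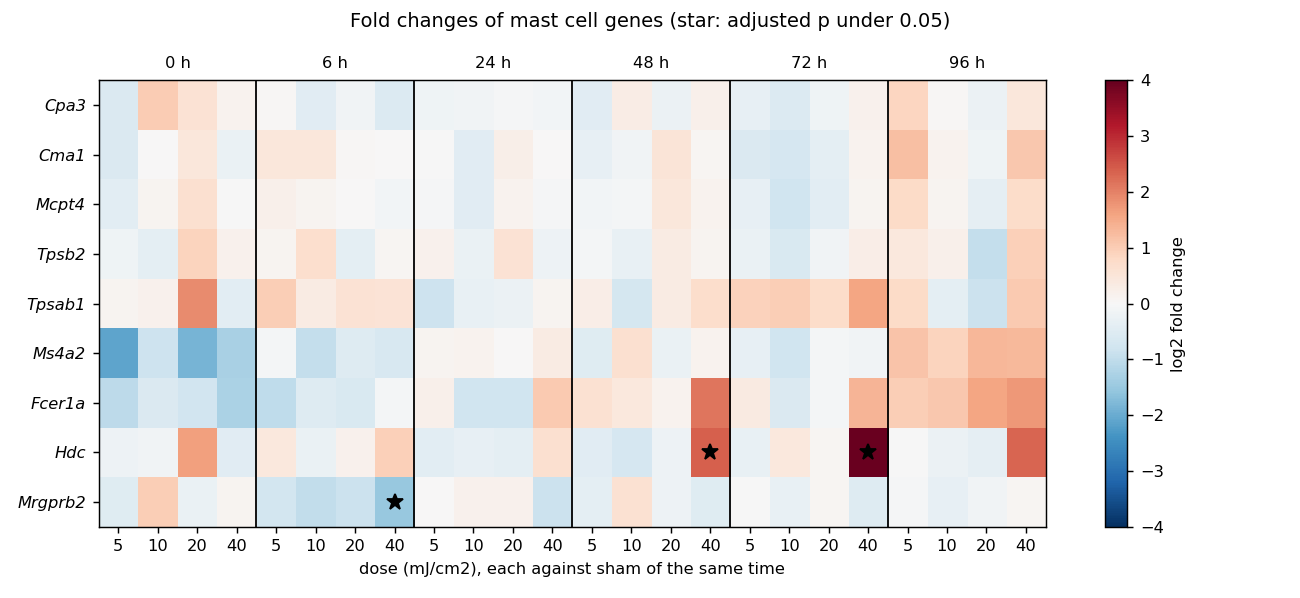
Log2 fold changes (colour, clipped at 4 in either direction) of the 9 genes for each dose in mJ/cm2 against sham of the same time; a star marks an edgeR adjusted p under 0.05. The stars are Mrgprb2 at 6 h and Hdc at 48 and 72 h, all at 40 mJ/cm2.

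Hdc encodes histidine decarboxylase, the enzyme that makes histamine, and is expressed in mast cells, basophils and some other myeloid cells, neutrophils included. At 48 h the 5 sham libraries held 2.65, 5, 2.13, 2.56 and 4.69 CPM of Hdc, and the 5 libraries at 40 mJ/cm2 held 11.8, 4.63, 31.6, 21.1 and 22.6 CPM. Of the 5 irradiated libraries 4 lay above every sham library, and replicate 2 lay within the sham range. The mean rose from 3.4 ± 1.33 to 18.3 ± 10.4 CPM (SD, n = 5 each), a log2 fold change of 2.40 ± 0.40 (SE, edgeR adjusted p = 0.00052). The fold change kept its call without any single library of the 2 groups and ranged from 2.13 to 2.72.

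At 72 h Hdc varied far more between irradiated animals. The sham libraries held 3.26, 1.66, 1.89, 2.37 and 2.51 CPM, and the 40 mJ/cm2 libraries 36.8, 7.23, 2.49, 142 and 2.64 CPM. Replicates 3 and 5 lay within the sham range, and replicate 4 was the highest of all 145 libraries. The log2 fold change was 3.96 ± 0.81 (edgeR adjusted p = 0.016) and fell to 2.2 ± 0.61 with an adjusted p of 0.2 without 40 mJ/cm2 replicate 4. Leaving out sham replicate 2, 4 or 5 or 40 mJ/cm2 replicate 1 also ended the call, with log2 fold changes of 3.89 to 3.94 and adjusted p of 0.059 to 0.067.

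At 96 h the 4 irradiated libraries held 7.5, 4.74, 1.81 and 49.4 CPM of Hdc against 2.1 to 3.94 CPM in sham. The log2 fold change of 2.32 ± 0.65 did not pass (edgeR adjusted p = 0.32). It passed narrowly with DESeq2 (adjusted p = 0.045), in a fit of all libraries (0.046), with no filter on low counts (0.043) and without 40 mJ/cm2 replicate 3 (0.049). Without replicate 4, the library at 49.4 CPM, it was 0.56 (adjusted p = 1). At 24 h the 40 mJ/cm2 libraries held 2.29 to 10.5 CPM and sham 2.24 to 3.47 CPM, with a log2 fold change of 0.64 ± 0.42 (adjusted p = 0.52), and 0.19 without replicate 5.

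The dose step lay between 20 and 40 mJ/cm2. At 48 h Hdc was 3.0 ± 1.55 CPM at 20 mJ/cm2 (SD, n = 4), 2.16 ± 0.426 at 10 mJ/cm2 and 2.49 ± 0.494 at 5 mJ/cm2 (n = 5 each). Directly compared, 40 exceeded 20 mJ/cm2 by 2.62 ± 0.43 on the log2 scale at 48 h (adjusted p = 0.00080, with 7.75% of all genes called) and by 3.87 ± 0.80 at 72 h (adjusted p = 0.034, 0.423%). The slope over log2 dose among irradiated animals was 0.95 ± 0.16 at 48 h (adjusted p = 0.0015, 3.79% of genes) and 1.37 ± 0.27 at 72 h (adjusted p = 0.021, 0.551%). Hdc was the single member called in each of these 4 tests. The 40 mJ/cm2 effect on Hdc moved from 24 to 48 h by 1.68 ± 0.80 and from 48 to 72 h by 1.63 ± 0.80, and neither change passed (adjusted p = 1 for both). None of the 9 members passed for a change between neighbouring times, where 1.71% (0 to 6 h), 0.155% (6 to 24 h), 0.0375% (72 to 96 h) and otherwise 0% of genes did, and in each step 0 or 1 member had an unadjusted p under 0.05.

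Averaged over 24, 48, 72 and 96 h in a fit of all 145 libraries, 2 of 9 members were called at 40 mJ/cm2, beside 15.8% of all genes. Hdc was higher by 2.31 ± 0.30 (log2, adjusted p = 5.2e-10) and Fcer1a, the IgE-binding chain of the receptor, by 1.58 ± 0.41 (adjusted p = 0.0029). Fcer1a was scarce: group means at 40 mJ/cm2 were 0.384 to 0.582 CPM from 24 to 96 h, against 0.112 to 0.285 CPM in sham. The highest values at these 4 times after 40 mJ/cm2 were 1.02, 1.66, 0.972 and 0.92 CPM. No library outside these groups held more than 0.712 CPM (sham replicate 2 at 72 h). Fcer1a may thus have passed the filter on low counts only through the groups where it is called higher. The averaged value was not computed without that filter. At 48 h the single Fcer1a values were 0.159, 0.129, 1.66, 0.61 and 0.358 CPM after 40 mJ/cm2 and 0, 0, 0.213, 0.178 and 0.247 CPM in sham, so the groups overlapped. Among libraries titled R1_001 alone the averaged Fcer1a value was 1.77 ± 0.81 with an adjusted p of 0.18, and among those titled R1 it was 1.83 ± 0.47 (adjusted p = 0.014). Ms4a2, the beta chain, had an averaged log2 difference of 0.40 ± 0.31 (adjusted p = 0.45), and the proteases lay between 0.18 ± 0.26 for Cpa3 and 0.83 ± 0.45 for Tpsab1, all uncalled. With the muscle marker level as a further covariate 5 of 9 members were called for this mean, in a fit that called 57.4% of all genes. Besides Hdc (2.41 ± 0.31) and Fcer1a (1.40 ± 0.43) they were Tpsb2 at 0.99 ± 0.26 (adjusted p = 0.00084), Cma1 at 0.54 ± 0.23 (0.036) and Mrgprb2 at -0.92 ± 0.24 (0.00057), where the values without it were 0.29, 0.34 and -0.42.

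The within-ending values of Hdc differed in size at 48 h. Among libraries titled R1_001 the log2 fold change was 1.00 ± 0.53 (edgeR adjusted p = 0.83; irradiated libraries at 11.8 and 4.63 CPM), and among those titled R1 it was 3.03 ± 0.33 (adjusted p = 0.00014; 31.6, 21.1 and 22.6 CPM). At 72 h the values were 3.1 ± 0.73 and 4.44 ± 1.26, neither of which passed.

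Neutrophil markers moved with Hdc. Of the 10 neutrophil markers tested, 8 rose at 40 mJ/cm2 at 48 h and 8 at 72 h. Of all genes 4.00% rose at 48 h, and 1.16% were called in either direction at 72 h. Among the markers that rose were the receptor gene Csf3r (log2 fold change 3.35 ± 0.43 at 48 h, edgeR adjusted p = 3.1e-05) and Cxcr2 (4.88 ± 0.67, adjusted p = 6.9e-05). The sum of all 11 markers was 11.1 to 28.9 CPM in sham skin against 47.8 to 402 CPM after 40 mJ/cm2 at 48 h. At 72 h the sums in 40 mJ/cm2 replicates 1 to 5 were 602, 60.8, 23, 1060 and 20.1 CPM beside the Hdc values of 36.8, 7.23, 2.49, 142 and 2.64 CPM. The library order is the same for both except that replicates 3 and 5, both low, change places. Over the 19 libraries at 40 mJ/cm2 from 24 to 96 h, Pearson's r between Hdc and the summed markers on a log2 scale was 0.97 and Spearman's rho 0.96 (permutation p = 1e-05, the smallest 100000 resamples can give). Benjamini-Hochberg adjusted p was 9e-05 over 9 relations for both, and r was 0.96 without the 2 libraries farthest from the median. Within title endings r was 0.92 and 0.98. For Hdc and macrophage markers r was 0.73 and rho 0.70 over levels in the same 19 libraries. Permutation p was 0.00036 and 0.0011 (adjusted p of r 0.0016). The r was 0.61 without the 2 farthest libraries, and 0.40 and 0.81 within endings. As deviations from group means, permuted within groups, r with Hdc was 0.97 for neutrophil markers (adjusted p = 9e-05). For macrophage markers it was 0.71 (permutation p = 0.0037, adjusted p = 0.017). The part of neutrophils and macrophages in the Hdc result was not tested.

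The relation of Hdc to neutrophil markers was weaker but present without 40 mJ/cm2. Over 114 libraries at 0 to 20 mJ/cm2, taken as deviations from group means, r was 0.60 and rho 0.54 (permutation p = 1e-05 for both, adjusted 9e-05 for both). The r without the 2 farthest libraries was 0.58, and within endings it was 0.53 and 0.67. An example is 20 mJ/cm2 at 0 h, where Hdc was 21.7, 16.3, 2.46 and 25.8 CPM beside neutrophil sums of 132, 114, 17.2 and 276 CPM, and the shallow replicate 5 held none of either. Hdc there had a log2 fold change of 1.65 ± 0.58 against sham, which did not pass (edgeR adjusted p = 0.72).

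**Figure D3:**
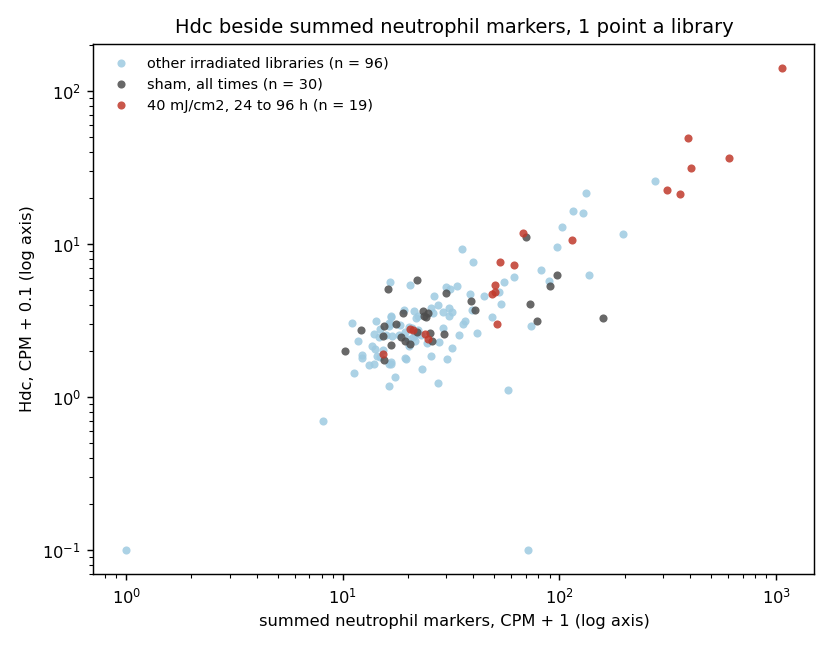
Hdc (CPM plus 0.1) against the summed CPM of 11 neutrophil markers (plus 1), both on log axes, 1 point a library. The 19 libraries at 40 mJ/cm2 from 24 to 96 h lie along 1 band from low to high values (r = 0.97); sham libraries reach 157 CPM of the markers, with 3.19 CPM of Hdc, in replicate 3 at 0 h, and 11 CPM of Hdc in replicate 5 at 0 h.

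Basophils, which also make histamine, were read by a list of 5 markers, 4 of them tested. Mcpt8, a protease gene of basophils, was the single basophil marker called higher, at 48 and 72 h. At 48 h Mcpt8 had no count in any of the 5 sham libraries. The 5 libraries at 40 mJ/cm2 held 34 counts (0.318 to 0.984 CPM, 2 to 11 counts each). Pooled, this was 12.8 times a floor of 3 counts set for the sham group (edgeR adjusted p = 0.0021). The error of the 34 counts is not part of that ratio, so it is not a lower bound. At 72 h Mcpt8 was 0.629 ± 0.559 CPM after 40 mJ/cm2 and 0.0142 ± 0.0317 CPM in sham (adjusted p = 0.021). The summed basophil list, of which Il6ra made up most (79.6 ± 16.2 CPM in sham at 48 h), was 49.8 to 81.4 CPM at 40 mJ/cm2 and 67.4 to 106 CPM in sham at 48 h. At 72 h the sum was 37 to 57.7 CPM at 40 mJ/cm2 and 60.2 to 103 CPM in sham. It was thus lower after 40 mJ/cm2 at 72 h without overlap, the opposite direction to Mcpt8. The part of basophils in the Hdc result was not tested.

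The ratio of Hdc to Cpa3 within a library relates Hdc to a gene of the mast cell granule. At 48 h the log2 ratio was 0.21 ± 1.06 at 40 mJ/cm2 and -1.96 ± 0.69 in sham (SD, n = 5 each), a difference of 2.17. Every irradiated library lay above every sham library. The two-sided exact permutation test gave p = 0.0079, the smallest that 5 against 5 allows, and 0.095 after adjustment over the 12 ratios and times tested. At the other times the groups overlapped. The difference was -0.38 at 0 h, 1.01 at 6 h, 0.67 at 24 h, 2.23 at 72 h and 1.23 at 96 h (exact permutation p of 0.056 to 0.52, adjusted 0.33 to 0.63), and at 72 h the irradiated libraries ran from -4.28 to 2.83 around a sham range of -3.91 to -2.11. The log2 ratio of Tpsb2 to Tpsab1 differed by -0.93 to 0.92 across times and by no more than its spread (adjusted p of 0.55 to 0.93).

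Mrgprb2 encodes the receptor by which connective tissue mast cells respond to basic secretagogues and neuropeptides. At 6 h the sham libraries held 7.24, 8.06, 6.54, 13.5 and 8.99 CPM, and the 40 mJ/cm2 libraries 2.38, 3.21, 2.47, 5.09 and 2.2 CPM. The 2 groups did not overlap. The mean fell from 8.88 ± 2.77 to 3.07 ± 1.19 CPM (SD, n = 5 each), a log2 fold change of -1.53 ± 0.37 (edgeR adjusted p = 0.015). Without sham replicate 4 it was -1.30 ± 0.38 (adjusted p = 0.060) and without 40 mJ/cm2 replicate 5 it was -1.42 ± 0.40 (adjusted p = 0.062), so each of these libraries decides the call. Sharing 1 estimate of spread over all libraries left the value at -1.53 with an adjusted p of 0.076.

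The lower doses at 6 h had Mrgprb2 means of 5.42 ± 2.39, 3.73 ± 2.45 and 4.97 ± 2.27 CPM at 5, 10 and 20 mJ/cm2. Their log2 fold changes of -0.72 ± 0.36, -0.98 ± 0.39 and -0.85 ± 0.36 did not pass (adjusted p of 0.47 to 1). The slope over dose among irradiated animals was -0.21 ± 0.12 (adjusted p = 0.57), and 40 against 20 mJ/cm2 gave -0.68 ± 0.37 (adjusted p = 0.87). At 0 h Mrgprb2 was 8.05 ± 5.37 CPM at 40 mJ/cm2 and 7.39 ± 4.64 CPM in sham, and the change of the effect from 0 to 6 h was -1.62 ± 0.74 (adjusted p = 0.37). At 24, 48, 72 and 96 h the 40 mJ/cm2 log2 fold changes were -0.85, -0.48, -0.51 and 0.09, all uncalled. Without 40 mJ/cm2 replicate 3 the 72 h value was -1.80 ± 0.71 (adjusted p = 0.20), and without replicate 1 the 96 h value was -0.67 ± 0.63 (adjusted p = 1). Kit, the receptor for stem cell factor on which mast cells depend and which melanocytes also carry, was 13.7 ± 4.81 CPM in sham and 8.12 ± 2.03 CPM after 40 mJ/cm2 at 6 h (log2 fold change -0.75 ± 0.31, adjusted p = 0.20).

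None of the 5 granule proteases passed against sham at any time without a muscle covariate, and with it Tpsb2 passed at 24 and 48 h and Mcpt4 at 24 h. At 48 h Mcpt4 was 17.8 ± 1.86 CPM in sham skin against 19.8 ± 11.4 CPM after 40 mJ/cm2 (log2 fold change 0.14 ± 0.39), and Cpa3 was 13.3 ± 3.87 and 15.5 ± 9.04 CPM (0.19 ± 0.37). At 96 h, where the fold changes of Cma1, Mcpt4 and Tpsb2 were largest in size over the 6 times, Cma1 held 8.03, 10.9, 4.94, 16.9 and 11.7 CPM in sham and 41.2, 11.9, 3.27 and 33.1 CPM after 40 mJ/cm2. Replicates 1 and 4 lay far above sham and replicate 3 below it, and the log2 fold change was 1.08 ± 0.57 (adjusted p = 1), or 0.49 without replicate 1. Mcpt4 repeated that order, with 49.3, 16.9, 4.93 and 46.8 CPM. The cause of this spread between irradiated animals was not tested.

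Protease levels differed between times when all dose groups were averaged. In every dose group, sham included, Cma1, Mcpt4 and Tpsb2 were lower at 0 h than at 6 h. Group means of Mcpt4 were 6.47 to 11.8 CPM at 0 h and 20.2 to 24.9 CPM at 6 h. Tpsb2 went from 1.58 to 2.9 CPM at 0 h to 5.23 to 12.5 CPM at 6 h, and Cma1 from 4.38 to 7.72 CPM to 13.6 to 19.3 CPM. Averaged over the 5 dose groups, a contrast added after the data were seen, 6 of 9 members differed between 6 and 0 h, beside 27.9% of all genes. Mcpt4 was higher by 1.37 ± 0.20 on the log2 scale (adjusted p = 3.8e-08), Cma1 by 1.32 ± 0.21 (1.4e-07), Tpsb2 by 1.71 ± 0.29 (1.1e-06), Tpsab1 by 2.17 ± 0.39 (3.5e-06) and Cpa3 by 0.68 ± 0.23 (0.020). The difference of Mrgprb2 was -0.63 ± 0.24 (0.039), lower at 6 h.

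Cma1, Mcpt4 and Tpsb2 were also above 0 h at 24, 48, 72 and 96 h, by 0.99 to 1.86 on the log2 scale, and each of these contrasts passed (31.3%, 60.7%, 36.8% and 29.2% of all genes did). In sham animals alone none of the 9 members passed the joint test over times (edgeR, 4.95% of genes called), and 1 had an unadjusted p under 0.05. The sham log2 differences of Mcpt4 from 0 h were 0.99 to 1.39, close to those over all doses, with adjusted p of 0.063 to 0.18. Of the single sham contrasts, Ms4a2 at 96 h was the 1 called, at -1.97 ± 0.64 against 0 h (adjusted p = 0.046), where 2.11%, 3.62%, 7.4%, 3.57% and 5.66% of genes were called from 6 to 96 h, and sham replicate 3 at 0 h held 8.3 CPM of Ms4a2 against 0 to 2.25 CPM in the others.

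Tpsab1 was highest at 6 h. Its group means were 0.892 to 1.7 CPM at 6 h and 0.222 to 0.397 CPM at 24 h. In sham the mean at 6 h was 0.926 ± 1.02 CPM, but the median was 0.303 CPM, near 0.259 CPM at 24 h. At the irradiated doses medians were 0.976 to 1.23 CPM at 6 h and 0.172 to 0.44 CPM at 24 h. Over all doses Tpsab1 was higher at 6 than at 24 h by 1.87 ± 0.37 (log2, edgeR adjusted p = 0.00016, 6.46% of genes called). Hdc was the other member called there, at 0.91 ± 0.26 (adjusted p = 0.015). Tpsb2 had a difference of -0.15 ± 0.27 between the same times (adjusted p = 0.86). Among libraries titled R1 alone neither Tpsab1 (1.43 ± 0.56, adjusted p = 0.40) nor Hdc (0.88 ± 0.53, adjusted p = 0.67) passed, where 0.353% of all genes did.

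**Figure D4:**
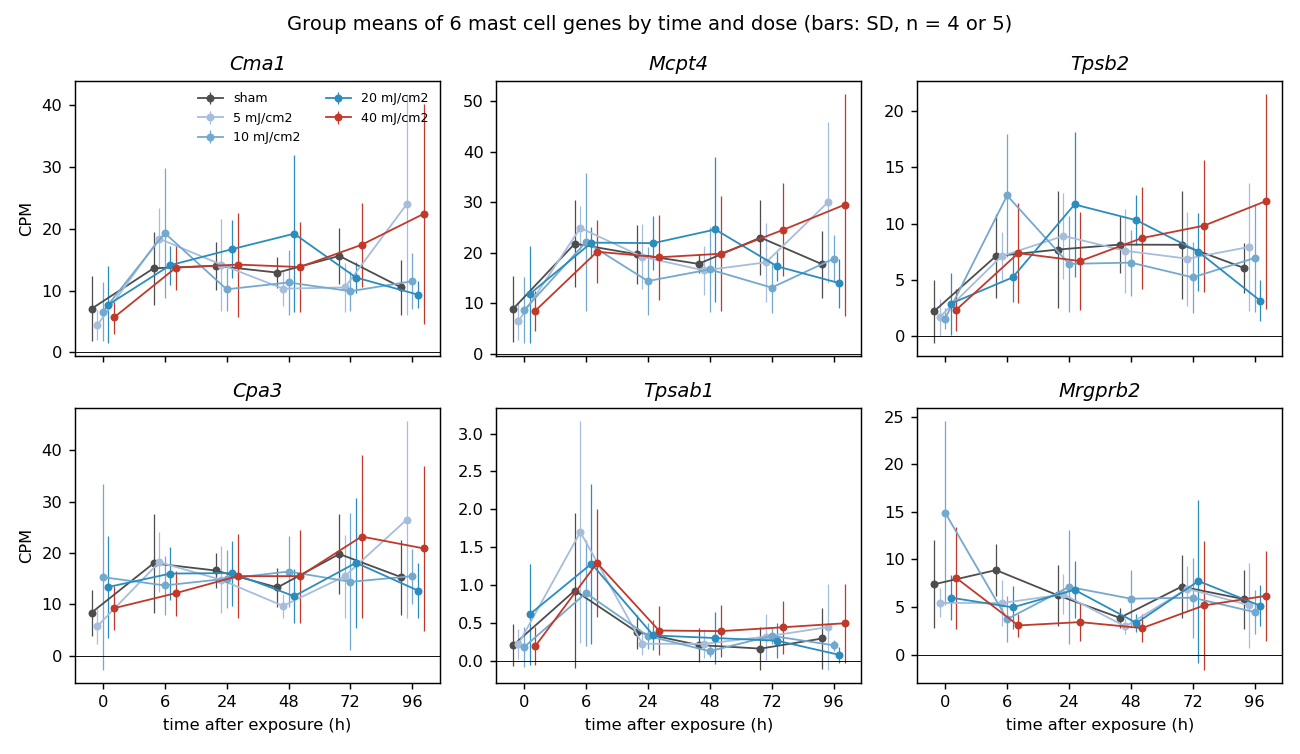
Group means of 6 members (CPM, bars are SD, n = 4 or 5) by time after exposure in hours, with 1 line a dose. Cma1, Mcpt4 and Tpsb2 start low at 0 h in all 5 dose groups, and Tpsab1 stands high at 6 h (0.892 to 1.7 CPM).

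The level of muscle markers moved with the same times. Their sum had group means of 18200 to 33200 CPM at 0 h and 36000 to 43500 CPM at 6 h. Keratinocyte markers had group means of 10300 to 15200 CPM at 0 h and 5560 to 8160 CPM at 6 h, and adipocyte markers 1150 to 1670 CPM and 504 to 1170 CPM. The part of keratinocytes and adipocytes in the difference was not tested. With the muscle marker level as a further covariate, the 6 h against 0 h differences were 1.11 for Cma1, 1.23 for Mcpt4, 1.06 for Tpsb2, 1.97 for Tpsab1 and 1.10 for Cpa3, all still called, in a fit that called 42.9% of all genes. Ms4a2 was called as well, at 0.97 ± 0.27 (adjusted p = 0.0022), and Mrgprb2 moved to -0.09 ± 0.21 (adjusted p = 0.78). Among libraries titled R1 alone 3 members passed: Cma1 (1.18 ± 0.34), Mcpt4 (1.32 ± 0.34) and Tpsab1 (2.09 ± 0.64), where 4.48% of all genes did.

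Muscle also moved with dose: 9 of 14 muscle markers fell at 40 mJ/cm2 at 48 h (7.62% of all genes called in either direction). Among those that fell was Casq1 (log2 fold change -1.33 ± 0.23, edgeR adjusted p = 0.00087). After 40 mJ/cm2 the 14 markers summed to 17400 to 31100 CPM against 38800 to 63700 CPM in sham. With the muscle covariate 3 members were called at 48 h: Hdc at 2.67 ± 0.51, Fcer1a at 3.31 ± 1.10 (adjusted p = 0.031) and Tpsb2 at 1.13 ± 0.41 (adjusted p = 0.044). That fit called 26.1% of all genes. At 24 h the covariate gave Tpsb2 1.27 ± 0.39 (adjusted p = 0.023), Mcpt4 0.78 ± 0.27 (0.038) and Mrgprb2 -1.34 ± 0.50 (0.048), none of which was called without it, and it called 26.6% of all genes. At 6 h it left Mrgprb2 at -1.53 ± 0.27 (adjusted p = 0.00071) at 40 mJ/cm2.

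Between animals of the same group, the members formed more than 1 pattern. Over all 145 libraries the deviations of Cma1 and Mcpt4 from their group means had r = 0.90, and Tpsb2 joined them at 0.67 and 0.61. Cpa3 and Ms4a2 had r = 0.64 and Ms4a2 and Mrgprb2 0.54, while Tpsb2 had 0.03 with Cpa3 and -0.42 with Mrgprb2. Cpa3 stood with both, at 0.60 with Cma1 and 0.68 with Mcpt4. These pairs share library and depth, and without the 2 shallow libraries the same values were 0.92, 0.70, 0.67, 0.74, 0.49, 0.09, -0.46, 0.61 and 0.70. Mcpt4 shares 2.51% of its 75-base windows with Cma2 and 40.7% of its values are not whole numbers, so some of its reads were assigned by estimate. Cma1 shares 1.67% of its windows with Gm48934, and no window of Cma1 was found in Mcpt4.

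**Figure D5:**
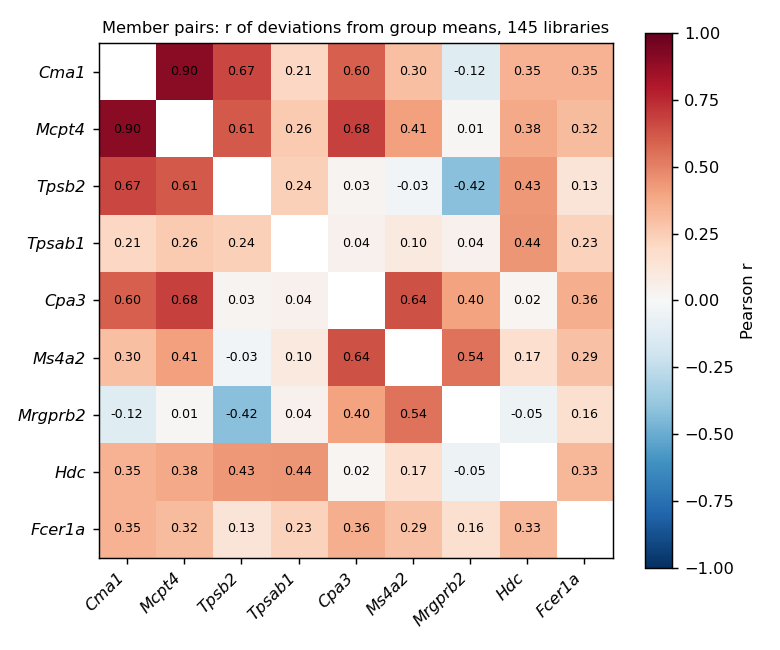
Pearson r between members, computed from deviations of log2 CPM from dose and time group means over 145 libraries. Cma1, Mcpt4 and Tpsb2 had r of 0.61 to 0.90 with each other, and Cpa3, Ms4a2 and Mrgprb2 of 0.40 to 0.64. Cpa3 also had 0.60 with Cma1 and 0.68 with Mcpt4, so these sets are not separate. Tpsb2 with Mrgprb2 is negative (-0.42).

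Other tissue components moved with these patterns. Over the 143 deeper libraries, deviations of summed muscle markers had r = 0.59 and rho = 0.60 with Tpsb2, r = -0.47 and rho = -0.42 with Mrgprb2, and r = -0.38 and rho = -0.29 with Cpa3 (permutation p of 1e-05 to 0.0019 over these, adjusted p of r 9e-05 to 0.0012 over 54 relations). Without the 2 farthest libraries r was 0.62, -0.45 and -0.32. Within endings (R1_001, then R1) it was 0.44 and 0.67 for Tpsb2, -0.25 and -0.59 for Mrgprb2, and -0.24 and -0.47 for Cpa3. Adipocyte markers had r = 0.36 and rho = 0.37 with Mrgprb2 (adjusted p of r 0.00098; 0.40 without the 2 farthest; 0.38 and 0.37 within endings). Macrophage markers had r = 0.60 and rho = 0.56 with Cma1 (adjusted p of r 9e-05; 0.58 without the 2 farthest; 0.44 and 0.72 within endings). Fcer1a was read over levels in the 19 libraries at 40 mJ/cm2 from 24 to 96 h. There macrophage markers had r = 0.70 and rho = 0.70 with Fcer1a. Permuted across times, p was 0.0010 and 0.00094 (adjusted p of r 0.0031). The r was 0.66 without the 2 farthest libraries, and 0.69 and 0.70 within endings. As deviations from group means, permuted within groups, r and rho were both 0.70 (permutation p = 0.0055 and 0.0056, adjusted p of r 0.017). The relation was not particular to macrophage markers. Over levels in the same 19 libraries, Fcer1a had r = 0.59 with neutrophil markers and -0.57 with hair shaft genes (permutation, adjusted p 0.019 and 0.023). As deviations these were 0.58 and -0.62 (adjusted p 0.045 and 0.025). Hair shaft genes had r = -0.34 with Cpa3, -0.32 with Mcpt4, -0.32 with Ms4a2 and -0.34 with Mrgprb2 over the 143 libraries (rho of -0.36 to -0.34, adjusted p of r 0.0002 to 0.0011; -0.33 to -0.29 without the 2 farthest; -0.30 to -0.15 and -0.47 to -0.36 within endings). The members named are not the only ones with such relations over the 143 libraries. Macrophage markers also had r = 0.53 with Mcpt4 and 0.44 with Tpsb2 (permutation, adjusted p 9e-05 for both). Muscle markers had r = -0.33 with Ms4a2 (adjusted p 0.002), and hair shaft genes -0.27 with Cma1 (adjusted p 0.0066). Of the 54 relations 24 had an adjusted p of r under 0.05, and not all of them are printed. The part of these components in the member levels was not tested beyond the muscle and hair covariates.

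The 10 genes whose deviations were most like the mean of the members over 145 libraries were Nckap1l (r = 0.61), Adgre1 (0.59), Flt3 (0.58), Mrgprb1 (0.58), Lcp2 (0.56), C3ar1, Itgam, Slfn2, Mcemp1 and Lilra6 (0.549 to 0.555). Without the 2 shallow libraries 4 of these 10 remained among the closest, namely Nckap1l, Adgre1, Lcp2 and Slfn2, and Tlr2 led with 0.64.

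The wider mast cell programme was read from further lists. Of 6 other mast cell proteases (Mcpt1, Mcpt2, Mcpt9, Tpsg1, Ctsg and Prss34) 1, Tpsg1, had enough counts to be tested, and it did not pass at any time. The 6 summed to group means of 0.101 to 0.804 CPM. Of 10 growth factor receptor and transcription genes tested, none passed at 0, 6, 24, 72 or 96 h. At 48 h 1 rose, beside 4.00% of all genes. It was Il1rl1, the IL-33 receptor carried by mast cells and other cells, with 7.28 ± 1.12 CPM in sham skin against 37.5 ± 15.6 CPM after 40 mJ/cm2 (log2 fold change 2.32 ± 0.29, adjusted p = 1.8e-05). Il1rl1 was also high at 6 h in sham animals (53.5 ± 30.2 CPM), beside 71.5 ± 29.5 CPM at 40 mJ/cm2 (adjusted p = 0.75). Gata2, a transcription factor of mast cells, was 3.82 ± 0.561 CPM in sham and 4.36 ± 1.24 CPM at 48 h (adjusted p = 0.76), and Kit was 12.2 ± 5.94 and 15 ± 2.1 CPM (adjusted p = 0.68).

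Of 11 genes of IgE receptor signalling, 6 rose at 40 mJ/cm2 at 48 h (4.00% of all genes rose there) and none passed at 6, 24, 72 or 96 h. They were led by the kinase Lyn (log2 fold change 0.95 ± 0.17, adjusted p = 0.00098), the adaptors Lcp2 (1.09 ± 0.20, 0.0015) and Lat2 (1.21 ± 0.24, 0.0023), and the receptor gamma chain Fcer1g (1.21 ± 0.24, 0.0027). Fcer1g was 38.6 ± 3.97 CPM in sham and 91.1 ± 31.7 CPM after 40 mJ/cm2. These genes are also used by macrophages and neutrophils, and 5 of 12 macrophage markers rose at the same time and dose, Itgam by 1.30 ± 0.20 (adjusted p = 0.00026). The part of macrophages and neutrophils in the rise of the IgE receptor signalling genes was not tested. Of 11 genes for granule content and lipid mediators, 3 rose at 48 h: Ptgs2 (2.39 ± 0.55, adjusted p = 0.0079), Alox5ap (0.96 ± 0.25, 0.021) and Srgn, the core protein of granule proteoglycan (1.13 ± 0.31, 0.027). Ptgs1, a prostaglandin synthase, fell at 24 h (-0.73 ± 0.18, adjusted p = 0.033). Of 3 histamine receptor and breakdown genes tested, the receptor Hrh2 rose at 48 h from 1.1 ± 0.395 to 3.99 ± 1.59 CPM (1.76 ± 0.38, adjusted p = 0.0054).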

How the data were processed

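Skin RNA of 145 animals was made into stranded poly(A) libraries and sequenced as single reads, per the labels' protocols. The series design states that 5 of 150 samples were removed for animal death or low RNA yield. The deposited table holds the expected counts that the authors estimated from the reads of each gene, and 12.6% of its entries carry decimals. Tools listed by the submitters' processing notes are STAR 2.7.10a, fastp 0.23.0, bcl2fastq 2.20.422 and DESeq2 1.36.1, with GRCm39 as the build. The sources used here name neither the counting program nor the annotation, nor whether strand was used. Of 55416 Ensembl identifiers 52083 received a symbol from GENCODE vM21 (GRCm38). It also gave joined exon lengths and transcript windows, and no gene coordinates were taken from it.

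Expected counts were rounded. The test was the two-sided quasi-likelihood F test of edgeR 4.0.16 (R 4.3.3), with TMM over all libraries and filterByExpr over 30 groups, which left 18677 genes. The dose groups of a time shared 1 fit with the title ending as a covariate. A fit of all libraries gave contrasts over times, of which those over all doses were chosen after seeing the data. Benjamini-Hochberg adjustment covered all genes of a comparison, and calls are adjusted p under 0.05. SE is the log2 fold change over the square root of F. Levels are CPM on TMM-scaled totals. Log2 CPM for pairs of members, like genes and ratios used a prior count of 2, and correlations with marker sums used log2 of CPM plus 0.5 and 100000 permutations (within groups, except for levels over the 19 libraries at 40 mJ/cm2). Alternatives were DESeq2 1.42.0, its size factors, no filter, no ending, muscle or hair marker level as covariate, 1 fit of all libraries, no shallow libraries, each ending alone, each library left out and, for ratios, a prior count of 0.5. The fit was tested on simulated data. The tests weigh differences or correlations against the variation between libraries, each from its own animal. The floor set for Mcpt8 in sham covers counting error only.

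The members and lists were chosen with earlier results of these data known. Genes named from other lists are at most 4 per list and time, those called at 40 mJ/cm2 with the smallest p, and Kit, Il1rl1 and Gata2. Not all of them are printed. Like genes were the 10 with the highest correlation of deviations, without predicted genes or genes whose mean log2 CPM is below 0. Within groups, 280 pairs of libraries had a chi-square per degree of freedom of at least 7.61 and r of at most 0.982, so within groups no library was treated as a copy of another. Pairs across groups were not compared. The titles of 5 libraries begin with repeat, and each was kept as 1 library.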

Additional observations from a re-analysis of the deposited data

Results flagged for a closer look

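In 10 of 108 sets of values (9 members, sham and 40 mJ/cm2, 6 times) a single library stood apart from the rest of its group by Dixon's ratio on CPM. The cut-offs used would give this in about 1 in 20 sets of normally distributed values. CPM of scarce genes, with libraries at 0, are not so distributed, and the rate that chance gives here was not tested. Every value that stood apart was the highest of its group. At 72 h after 40 mJ/cm2, replicate 3 was highest for Cpa3 (51 CPM; the others 12.9 to 19.8), Ms4a2 (4.05; 0.997 to 1.88) and Mrgprb2 (17.1; 0.816 to 4.29). In the same group replicate 4 held 142 CPM of Hdc (the others 2.49 to 36.8). At 96 h after 40 mJ/cm2, replicate 4 held 49.4 CPM of Hdc (1.81 to 7.5) and replicate 1 held 13.2 CPM of Mrgprb2 (3.41 to 4.72). The other values that stood apart were Ms4a2 in sham replicate 3 at 0 h (8.3 CPM; 0 to 2.25), Fcer1a in sham replicate 2 at 72 h (0.712; 0.118 to 0.265), Tpsab1 in sham replicate 5 at 72 h (0.661; 0 to 0.0709) and Tpsab1 in 40 mJ/cm2 replicate 4 at 0 h (0.627; 0 to 0.123).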

How the results depend on the processing

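Of the recomputed counts of called members 90 stayed equal or within 1.5 times and 16 did not. Counts of 0 that stayed 0 are among the 90 and say nothing about how stable a call is. No called fold change reversed its sign under any setting run. The count at 40 mJ/cm2 went from 1 to 0 at 6 h with R1 libraries only and with all libraries in 1 fit, at 48 h with R1_001 libraries only, and at 72 h with either ending alone and with DESeq2, which gave no adjusted p for Hdc there. With the muscle covariate it was 3 at 24 h, 3 at 48 h, 1 over the 18 lower-dose comparisons and 5 for the mean of 24 to 96 h. At 96 h it was 1 with DESeq2, no filter or all libraries in 1 fit. With R1_001 libraries only, the mean of 24 to 96 h gave 1. With R1 libraries only, 6 against 0 h gave 3 and 6 against 24 h gave 0. The share of all genes called is given above for these 2 contrasts. It is also given for the muscle covariate at 24 h, at 48 h and for the mean. For the other settings of this paragraph the share is not given, so their counts are not read as a result about the members. Leaving out each library gave 0 to 1 called at 6 h, 0 to 1 at 72 h and 0 to 1 at 96 h, and the counts at 0, 24 and 48 h and the lower doses did not move. Fewer samples enter the fits by ending; for the other changes the cause was not tested. A prior count of 0.5 left 0 ratios called. No paired analysis was possible because the labels number the animals individually, groups share no animal number, and the replicate numbers used here only name libraries in accession order. Low counts of Fcer1a and Tpsab1 limit what could be detected for them.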
